A study of Mus musculus with 12 samples.

Results

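Wound matrix in the mouse heart was followed through 9 genes: Fn1, Tnc, Vcan, Has1, Has2, Cd44, Sparc, Eln and Fbn1. They were picked out of the table by gene symbol from a list made with earlier results of these data known, and all 9 were found among the 16218 genes of the deposited expression table. RNA came from hearts of 12 female wild-type mice aged 12 weeks, 4 animals in each of 3 groups with 1 library per animal. The sham mice were the controls without infarction. In the infarcted mice the left anterior descending coronary artery was tied off permanently, and they received either phosphate-buffered saline as vehicle (MI+PBS) or agrin, an extracellular heparan sulfate proteoglycan (MI+Agrin). RNA was taken 2 weeks after infarction. The sources used here do not give the mouse strain, the dose, form and route of agrin, or the part of the heart sampled. A further group of infarcted wild-type mice named in the design text was not analysed here.

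After tissue injury, leaked plasma and local cells lay down a provisional matrix rich in fibronectin, tenascin-C and hyaluronan, on which inflammatory cells and fibroblasts migrate before collagen replaces it. Hyaluronan is a long sugar chain spun out at the cell surface by the hyaluronan synthases, held in the matrix by versican and bound on cells by the receptor CD44. Elastic fibres give a tissue recoil. They consist of an elastin core on a scaffold of fibrillin microfibrils, and in the adult heart they are found in vessels, valves and the interstitium.

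The table gave normalized read counts, which are reads per gene divided by 1 factor per library. Whole reads could be recovered, at 20238512 to 22742027 per library. Cardiac muscle was present in every library, with summed normalized counts of 8 cardiomyocyte markers between 945720.0 and 1821400.0. On the first principal component, which held 40.8% of the variance, MI+PBS replicate 2 lay farthest from sham, with a score of 45.16, while the remaining vehicle hearts scored 21.14 to 24.9. The second component set off MI+Agrin replicate 1, which scored -40.17, while the remaining agrin hearts scored -10.33 to 12.86. Results below are given with both libraries and, where they matter, without them. In whole tissue, more cells of one kind and more RNA per cell cannot be told apart.

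All 9 genes rose in infarcted vehicle hearts, from 1.92-fold for Eln to 5.41-fold for Tnc. All passed the test upward, as did 22.6% of all tested genes. With agrin, 8 of the 9 passed upward against sham, where 15.4% of all genes did. Eln, the exception, had an estimate above sham, at 1.37-fold, that did not pass. Between agrin and vehicle 0 of the 9 passed the test, and 7 of the 9 had lower and 2 had higher estimates with agrin. The values for each gene follow by its role, as normalized read counts in the order of the numbers in the sample titles, which are 2, 3, 4 and 5 for sham, 1, 2, 3 and 5 for MI+PBS and 1, 3, 4 and 5 for MI+Agrin. Changes are log2 fold changes ± SE on the scale of log2(count + 1), and p-values come from limma, with Benjamini-Hochberg adjustment over all 14906 genes tested.

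**Figure D1:**
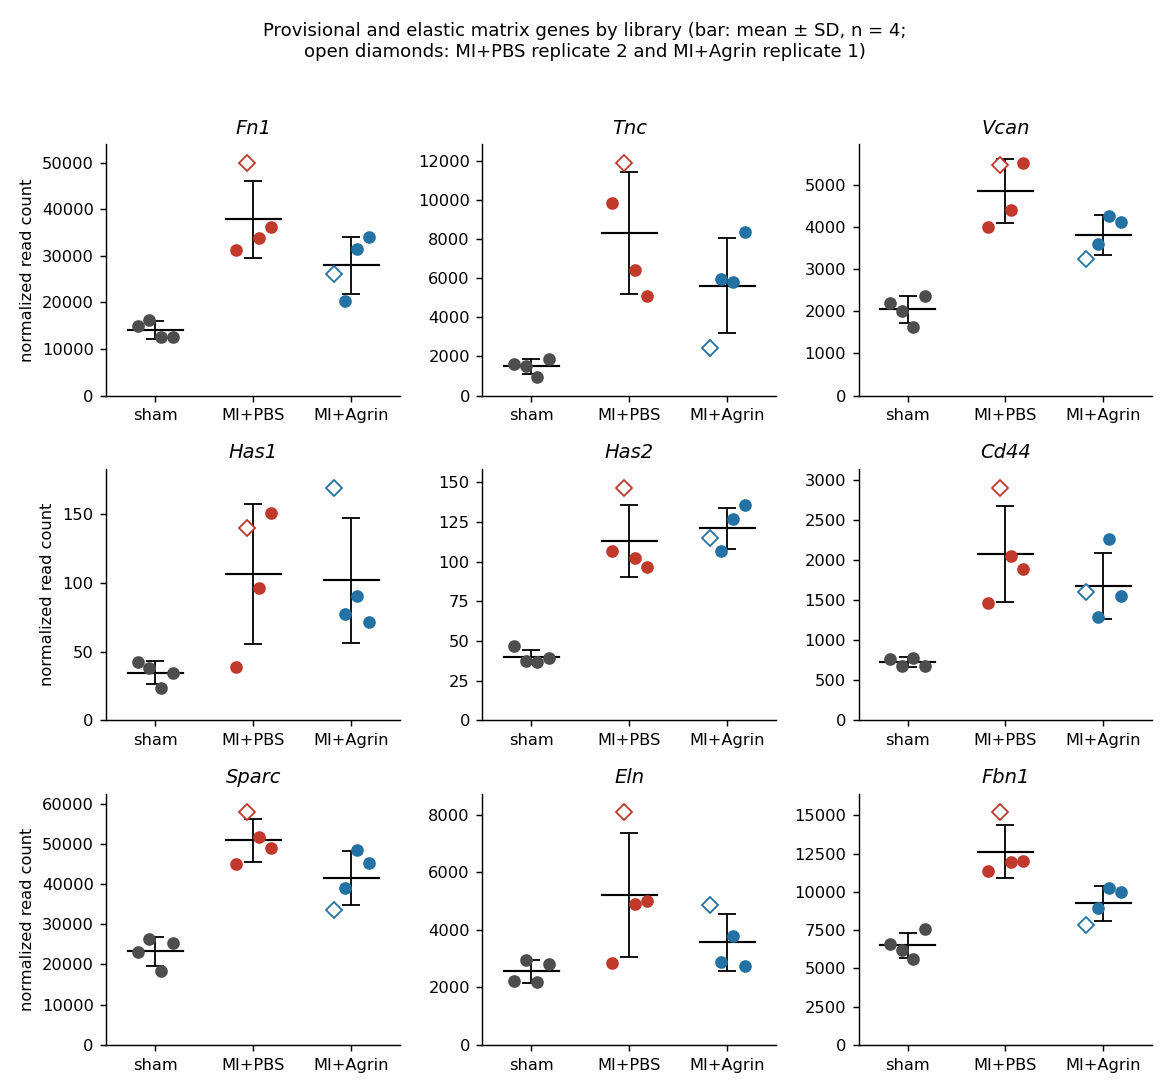
Normalized read counts of the 9 genes (vertical axis, linear from 0) in sham, MI+PBS and MI+Agrin hearts, 1 point per library, with the mean and SD of 4 libraries. The 4 infarcted vehicle libraries lie above all sham libraries except for Has1 and Eln, and MI+PBS replicate 2, shown like MI+Agrin replicate 1 as an open diamond, is the highest of the 12 libraries for 7 genes.

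The genes differ widely in level, and they can be compared with each other only per length. Per kilobase of exon, Sparc was highest in sham hearts with a mean of 6134 normalized counts, followed by Fn1 with 1206, Fbn1 with 535.6 and Eln with 315.4. The ranges over the 4 sham libraries were apart at each of these steps and between Eln and Tnc (192.8). Vcan (141.3) overlapped in range with both Tnc and Cd44 (107.4). Has2 (9.45) and Has1 (7.66) were far below the rest and overlapped with each other.

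After infarction the order changed at 1 gene. Tnc was below Eln in sham hearts and reached 1070 per kilobase in MI+PBS hearts, next to Fbn1 at 1042, with overlapping ranges. With agrin Fbn1 (762.2) and Tnc (724.1) again overlapped. Both synthase genes stayed lowest in every group.

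**Figure D2:**
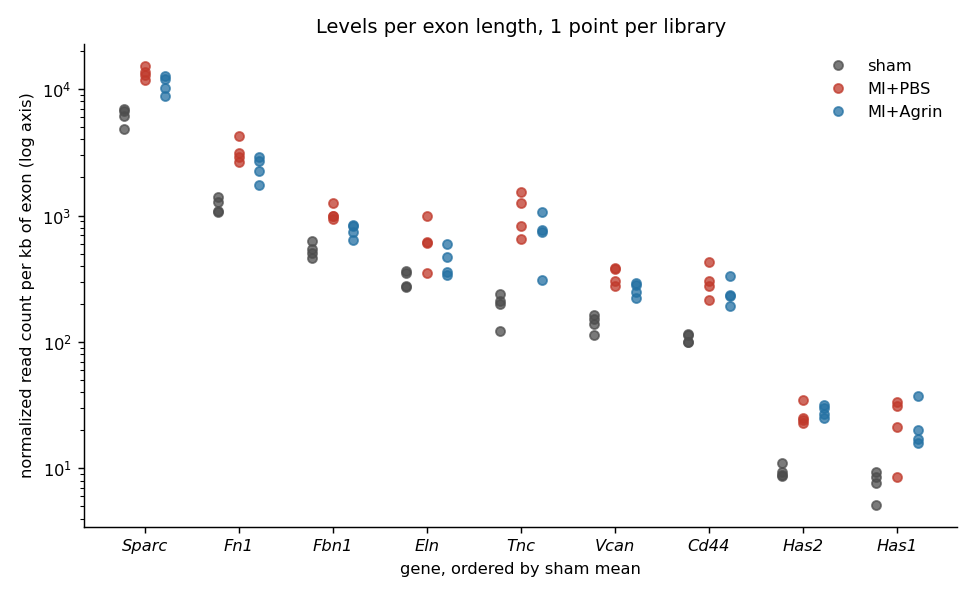
Normalized read counts per kilobase of exon (log axis) for the 9 genes, ordered by their sham mean, 1 point per library. Sparc, with a mean of 6134 in sham hearts, lies highest in every group, and Has2 and Has1, with sham means of 9.45 and 7.66, lie lowest.

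Promoters were read because the genes rose together. All 9 genes lie on the minus strand of their chromosomes, and RefSeq windows (GRCm38.p6, which is mm10) from 250 bases before to 50 after the start were found for 6 of them: Tnc, Vcan, Has1, Cd44, Sparc and Fbn1. Shown are the 250 bases before the start of the gene with the largest rise, Tnc (chr4:64047016-64047265), of Vcan (chr13:89742513-89742762) and of Has1 (chr17:17855189-17855438), 5′ to 3′ on the minus strand. Capitals mark matches, on either strand, to the letters TATAAA of the core promoter element of that name, to the GC box GGGCGG and to the cyclic AMP response element TGACGTCA.
Tnc: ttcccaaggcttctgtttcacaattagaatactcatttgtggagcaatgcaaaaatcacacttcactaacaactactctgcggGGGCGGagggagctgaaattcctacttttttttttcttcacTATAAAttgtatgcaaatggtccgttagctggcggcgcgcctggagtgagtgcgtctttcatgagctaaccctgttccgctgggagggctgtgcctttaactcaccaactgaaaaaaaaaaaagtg
Vcan: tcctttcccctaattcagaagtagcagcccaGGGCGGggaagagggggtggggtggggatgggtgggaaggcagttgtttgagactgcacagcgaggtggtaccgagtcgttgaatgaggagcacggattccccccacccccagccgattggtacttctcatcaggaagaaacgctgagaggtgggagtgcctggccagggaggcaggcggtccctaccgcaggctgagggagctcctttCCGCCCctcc
Has1: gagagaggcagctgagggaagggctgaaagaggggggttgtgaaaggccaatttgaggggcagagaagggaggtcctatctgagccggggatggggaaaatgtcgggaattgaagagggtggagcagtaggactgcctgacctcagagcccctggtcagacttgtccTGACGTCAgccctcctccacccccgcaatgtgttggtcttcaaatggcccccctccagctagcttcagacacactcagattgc
The 3 stretches share no single motif among those searched. Over the 32851 windows of all genes, on both strands, GGGCGG occurred in 35.7% and in 4 of the 6 genes (Tnc, Vcan, Cd44 and Fbn1). TATAAA occurred in 13.6% of windows and in Tnc only, and TGACGTCA in 1.79% and in Has1 only. The AP-1 letters TGANTCA, in 7.81% of windows, were in 0 of the 6, as were the TEAD letters GGAATG, in 14.7% of windows. Tnc has a second window with a later start, which held the same 2 motifs. A match is a description of these letters and not a binding site.

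Fn1 encodes fibronectin, the glycoprotein scaffold of early wound matrix, which integrins assemble into fibrils. The gene spans positions 71585520 to 71653200 of chromosome 1 (mm10). The sham libraries gave 14927, 16313, 12509 and 12603 normalized counts, the MI+PBS libraries 31208, 49933, 33935 and 36254, and the MI+Agrin libraries 26153, 20295, 31563 and 34046. Every infarcted heart, with or without agrin, was above every sham heart, and the vehicle and agrin ranges overlapped. Fn1 rose by 1.41 ± 0.17 in MI+PBS against sham (adjusted p = 7.67e-05) and by 0.97 ± 0.17 in MI+Agrin against sham (adjusted p = 0.00185). MI+PBS replicate 2 was far above the other vehicle hearts. Without it the vehicle mean fell from 37832 ± 8326 (SD, n = 4) to 33799 ± 2526 (SD, n = 3).

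Tnc encodes tenascin-C, a glycoprotein scarcely made in healthy adult heart muscle and induced at wound edges. Its locus on chromosome 4 runs from 63959785 to 64047015. The sham libraries gave 1629, 1538, 956.3 and 1869 normalized counts. Among MI+PBS libraries the values were 9844, 11888, 6416 and 5110, and among MI+Agrin libraries 2420.1, 5936, 5795 and 8359. The rise in MI+PBS against sham, 2.43 ± 0.36 (adjusted p = 0.000208), was the largest estimate of the 9 genes, and in MI+Agrin against sham it was 1.82 ± 0.36 (adjusted p = 0.00311). No infarcted library overlapped with sham. Tnc varied widely within groups, with a coefficient of variation of 37.4% in MI+PBS and 43.4% in MI+Agrin. MI+Agrin replicate 1 held by far the lowest value of the infarcted hearts, and without it the MI+Agrin coefficient was 21.5%.

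Vcan encodes versican, the large proteoglycan that binds hyaluronan through its N-terminal domain. Chromosome 13 holds the gene at 89655312 to 89742509. Normalized counts were 2196, 2000.5, 1627 and 2350.4 in sham, 3992, 5461, 4409 and 5512.5 in MI+PBS, and 3230, 3599, 4258 and 4111 in MI+Agrin libraries. Each infarcted heart was again above each sham heart. Vcan rose by 1.24 ± 0.13 in MI+PBS against sham (adjusted p = 3.74e-05) and by 0.90 ± 0.13 in MI+Agrin against sham (adjusted p = 0.000673). Its spread within groups was small, with coefficients of variation from 12.5% to 15.7%.

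Has1 and Has2 encode plasma membrane enzymes that make hyaluronan, and Has2 is the one needed for heart formation in the mouse embryo. Has2 lies on chromosome 15 from 56665627 to 56694539. It gave 46.5, 37.3, 37.0 and 39.4 normalized counts in sham, 106.9, 146.5, 102.3 and 96.6 in MI+PBS, and 114.5, 106.6, 126.7 and 135.4 in MI+Agrin libraries. Sham and infarcted hearts did not overlap, and the vehicle and agrin values were interleaved. Has2 rose by 1.46 ± 0.15 in MI+PBS (adjusted p = 3.05e-05) and by 1.57 ± 0.15 in MI+Agrin (adjusted p = 8.54e-05), both against sham. These are low counts. In sham replicate 4, for example, 35 reads carry a 95% Poisson interval of 24.4 to 48.7 reads, which covers counting error only.

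Has1 lies on chromosome 17 from 17843323 to 17855205, and its upstream stretch was the one with the cyclic AMP element. Its normalized counts were 42.5, 38.3, 23.3 and 34.5 in sham, 38.9, 139.7, 96.1 and 150.8 in MI+PBS, and 169.2, 77.0, 90.1 and 71.5 in MI+Agrin libraries. MI+PBS replicate 1 lay within the sham range, and the other 7 infarcted libraries lay above it. Has1 rose by 1.45 ± 0.39 in MI+PBS (adjusted p = 0.00939) and by 1.47 ± 0.39 in MI+Agrin (adjusted p = 0.0145), both against sham. The 40 reads behind MI+PBS replicate 1 have a Poisson interval of 28.6 to 54.5, and the 167 reads behind MI+Agrin replicate 1 one of 142.6 to 194.3, so counting error does not span the range among infarcted hearts.

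Has1 is also known from mesothelial cells, and the libraries differed in markers of the epicardium, the mesothelial cover of the heart. The summed normalized counts of 5 markers (Wt1, Upk3b, Upk1b, Msln and Krt19) ran from 2017.2 to 2535.1 in sham, from 1086.5 to 2416.2 in MI+PBS and from 1309.8 to 4590.9 in MI+Agrin libraries, and no marker was at 0. MI+PBS replicate 1, with the lowest Has1 value of the infarcted hearts, had the lowest sum, and MI+Agrin replicate 1, with the highest Has1 value, had the highest. Taken singly, Upk3b, Upk1b, Msln and Krt19 had these same lowest and highest infarcted libraries, Upk3b by a narrow margin at the low end (335.28 beside 335.6). Wt1 was also highest in MI+Agrin replicate 1 but lowest in MI+Agrin replicate 3, with 175.7 beside 311.95 in MI+PBS replicate 1. In limma 0 of the 5 markers passed in any of the 3 comparisons, 0 had an unadjusted p under 0.05, and edgeR and DESeq2 called 0. Without MI+PBS replicate 2 and MI+Agrin replicate 1, limma called 1, Upk3b, lower in MI+PBS against sham. Infarcted libraries with sums in the sham range, such as MI+PBS replicate 5 at 2144.7, had Has1 values above all sham libraries. The part of epicardial tissue in the Has1 differences was not tested.

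**Figure D3:**
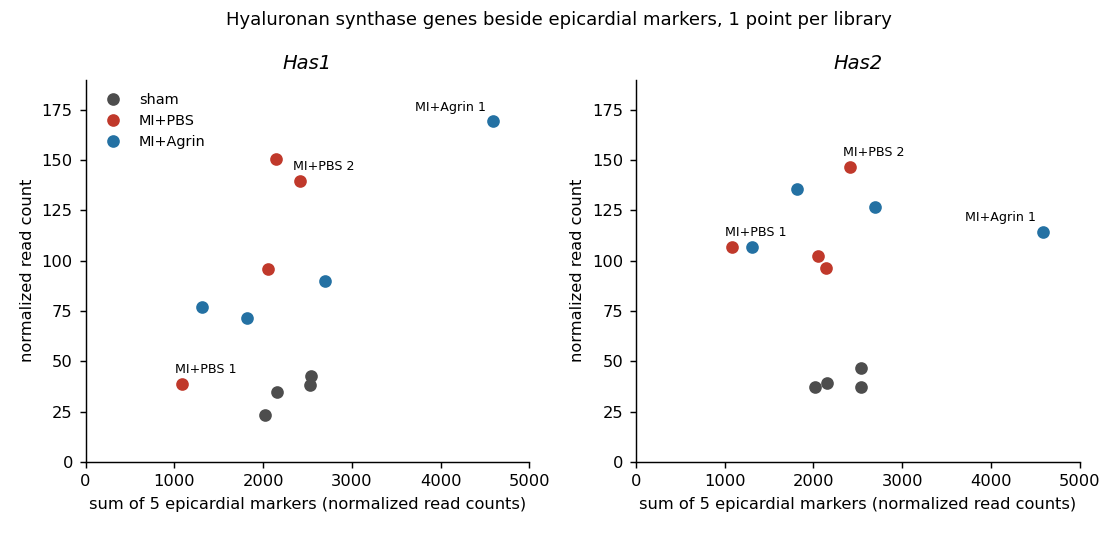
Normalized read counts of Has1 (left) and Has2 (right) against the summed normalized counts of 5 epicardial markers, 1 point per library, both axes linear from 0. For Has1, MI+PBS replicate 1 (1086.5 on the horizontal axis) and MI+Agrin replicate 1 (4590.9) are the lowest and highest infarcted libraries on both axes, whereas their Has2 values are 106.9 and 114.5.

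Cd44 encodes the main cell surface receptor of hyaluronan, carried by leukocytes and by activated fibroblasts. The gene spans 102811141 to 102901665 of chromosome 2. Normalized counts were 771.2, 679.3, 784.1 and 675.8 in sham, 1465, 2907, 2055 and 1887 in MI+PBS, and 1607, 1293, 2264 and 1557 in MI+Agrin libraries. Sham hearts were closely alike, with a coefficient of variation of 8.0%, and all infarcted hearts were higher. Cd44 rose by 1.47 ± 0.19 in MI+PBS (adjusted p = 0.000101) and by 1.18 ± 0.19 in MI+Agrin (adjusted p = 0.00107), both against sham. All 9 macrophage and leukocyte markers measured rose with it in both comparisons, their sum running from 9180.4 to 12043 in sham, from 19537 to 22800.0 in MI+PBS and from 15678 to 20571 in MI+Agrin libraries. Among them were the pan-leukocyte gene Ptprc (0.87 ± 0.16) and Cd68 (1.57 ± 0.20), a lysosomal protein of macrophages, both in MI+PBS against sham. The part of leukocyte number in the Cd44 difference was not tested.

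Sparc encodes a collagen-binding matricellular protein needed for normal collagen deposition. Its locus on chromosome 11 runs from 55394500 to 55423183. Normalized counts were 23142, 26295, 18257 and 25253 in sham, 45039, 57803, 51618 and 48833 in MI+PBS, and 33548, 38903, 48383.5 and 45162.5 in MI+Agrin libraries. Infarcted and sham hearts did not overlap. Sparc rose by 1.14 ± 0.14 in MI+PBS (adjusted p = 7.09e-05) and by 0.84 ± 0.14 in MI+Agrin (adjusted p = 0.0012), both against sham. Its coefficient of variation in MI+PBS was 10.6%, and 6.8% without replicate 2.

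Eln encodes tropoelastin, the soluble precursor that lysyl oxidases cross-link into elastin. The gene spans 134702593 to 134747323 of chromosome 5. Normalized counts were 2234, 2957, 2201 and 2826 in sham, 2841, 8074, 4891 and 4985 in MI+PBS, and 4860.5, 2878, 3777 and 2730.4 in MI+Agrin libraries. MI+PBS replicate 1 lay within the sham range, as did MI+Agrin replicates 3 and 5. Eln rose by 0.94 ± 0.26 in MI+PBS against sham (adjusted p = 0.0111), with 3 of 4 libraries above all sham libraries. In MI+Agrin against sham it was 0.45 ± 0.26 and did not pass (adjusted p = 0.216, 95% interval -0.12 to 1.02), so a rise as large as that with vehicle lay within its interval. Summed normalized counts of 5 atrial cardiomyocyte markers (Myl7, Myl4, Sln, Bmp10 and Nppa), none at 0, ran from 51984 to 103260.0 in sham, from 51027 to 165970.0 in MI+PBS and from 65681 to 148390.0 in MI+Agrin libraries. In both infarcted groups the library lowest for Eln also had the lowest atrial sum and the library highest for Eln the highest. Nppa made up most of each sum, for example 130915 of 165970.0 in MI+PBS replicate 2. Taken singly, Myl7, Myl4 and Sln had these same lowest and highest libraries in both infarcted groups, and Bmp10 did not. In limma 0 of the 5 atrial markers passed in any comparison, 0 had an unadjusted p under 0.05, and edgeR and DESeq2 called 0. Without MI+PBS replicate 2 and MI+Agrin replicate 1, however, Myl7 and Sln fell in MI+PBS against sham. The lowest and highest libraries were also the same for the sum of 4 smooth muscle markers (Myh11, Cnn1, Tagln and Smtn). It ran from 7515.3 to 8610.9 in sham, from 8777.4 to 9855.0 in MI+PBS and from 7843.1 to 9058.1 in MI+Agrin libraries. Taken singly, none of the 4 had these lowest and highest libraries in both infarcted groups. Tagln had them in MI+PBS only and Myh11 in MI+Agrin only. Some went the other way in MI+PBS, where Myh11 was lowest in replicate 2 (1720) and Smtn highest in replicate 1 (3856). Tagln and Cnn1 were lowest in MI+Agrin replicate 3 and highest in MI+Agrin replicate 4. In limma 2 of the 4 (Tagln and Cnn1) rose in MI+PBS against sham and 1 (Tagln) in MI+Agrin against sham, and 0 passed between agrin and vehicle. The parts of atrial tissue and of smooth muscle in the Eln differences were not tested.

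Fbn1 encodes fibrillin-1, the main protein of microfibrils, mutated in Marfan syndrome in humans. Its locus on chromosome 2 runs from 125300594 to 125507993. Normalized counts were 6608, 6176, 5614 and 7587 in sham, 11338, 15195, 11965 and 12049 in MI+PBS, and 7814, 8918, 10277 and 9970 in MI+Agrin libraries. The 3 groups did not overlap, with every agrin library above every sham library and below every vehicle library. Fbn1 rose by 0.96 ± 0.12 in MI+PBS (adjusted p = 7.05e-05) and by 0.51 ± 0.12 in MI+Agrin (adjusted p = 0.00668), both against sham. Exons of Fbn1 share 20.1% of their bases with a gene model on the other strand, Gm9913, which has no row in the table. The sources used here do not say whether counting used strand. Fbn1 values may therefore include antisense reads or lack reads from the shared bases, and are uncertain to that extent. For the other 8 genes the shared portion was at most 4.3%.

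All 9 genes passed upward in MI+PBS against sham, where 22.6% of all tested genes did. Their median was 1.41, beside -0.01 over all genes. For 7 of the 9, groups did not overlap, as for 21.6% of all genes in that direction, the exceptions being Has1 and Eln. All 9 also passed with MI+PBS replicate 2 left out, with estimates between 0.70 for Eln and 2.24 for Tnc. In MI+Agrin against sham 8 passed upward, where 15.4% of all genes did, with a median of 0.97 beside 0.00 over all genes. For 8 the groups did not overlap, as for 16.8% of all genes upward. The comparisons share the sham libraries and are therefore not independent.

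**Figure D4:**
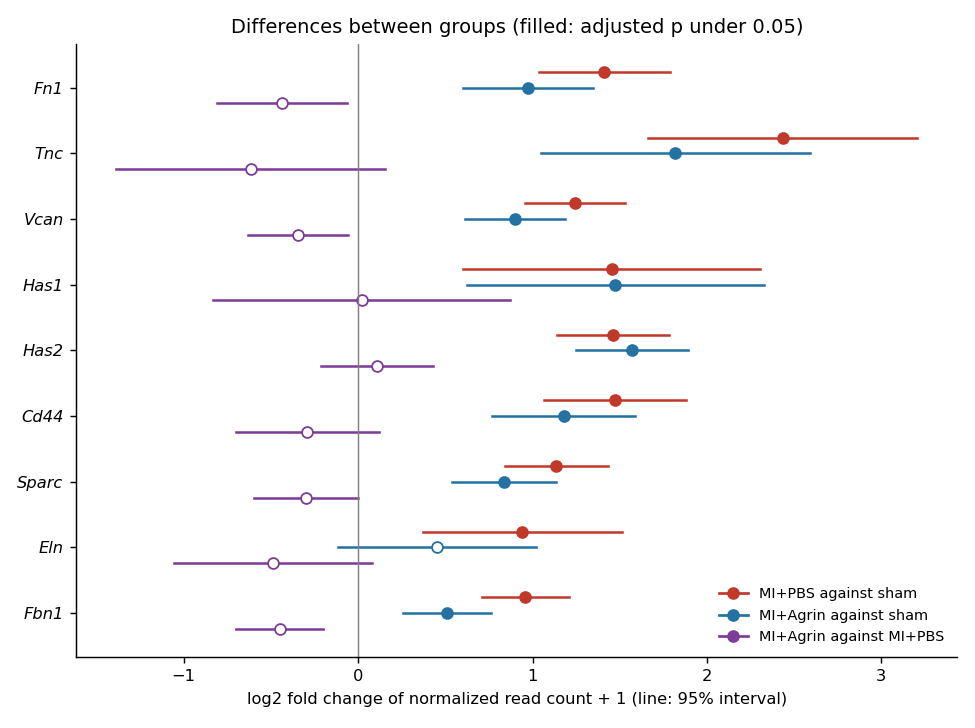
Log2 fold changes of normalized read count + 1 (horizontal axis) with 95% intervals for the 9 genes in the 3 comparisons, filled where the adjusted p is under 0.05. All 9 genes are filled for MI+PBS against sham, 8 for MI+Agrin against sham and 0 for MI+Agrin against MI+PBS, where the Fbn1 estimate is -0.45.

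Agrin hearts were set against vehicle hearts to ask what agrin changed after infarction. In limma 0 of the 9 genes passed, where 1.64% of all genes did (0.751% higher and 0.892% lower). Of the 9, 4 had an unadjusted p under 0.05, all lower with agrin, as for 9.6% of all genes in that direction. The estimate nearest to the threshold was that of Fbn1, -0.45 ± 0.12 (adjusted p = 0.0734, 95% interval -0.70 to -0.20). It was lower in all 4 agrin libraries than in all 4 vehicle libraries, a pattern found in 4.92% of all genes. Fn1 (-0.44 ± 0.17, adjusted p = 0.209), Vcan (-0.35 ± 0.13, adjusted p = 0.199) and Sparc (-0.30 ± 0.14, adjusted p = 0.262) were next, each with 2 agrin libraries below all vehicle libraries. DESeq2 on recovered reads called 1 gene, Fbn1 (-0.45, adjusted p = 0.0173), and edgeR called 0. Over the 20 alternatives the adjusted p of Fbn1 ran from 0.0173 to 0.302.

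Tnc (-0.62 ± 0.36, adjusted p = 0.363), Eln (-0.49 ± 0.26, adjusted p = 0.332) and Cd44 (-0.29 ± 0.19, adjusted p = 0.414) had wider intervals. That of Tnc ran from -1.39 to 0.15. The synthase genes had estimates above 0, at 0.11 ± 0.15 for Has2 (adjusted p = 0.731) and 0.02 ± 0.39 for Has1 (adjusted p = 0.985), and the sign of Has1 depended on the libraries and the tool. On the log2 scale the interval of Has2 ran from -0.21 to 0.43 and that of Has1 from -0.83 to 0.87. A p that misses the threshold does not show that agrin and vehicle hearts were alike.

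The estimates of this comparison depended on which libraries were used. With MI+PBS replicate 2 and MI+Agrin replicate 1 both left out, that of Tnc moved to -0.06 (adjusted p = 0.961, in a range of 0.245 to 0.961 over the 20 alternatives), that of Fn1 to -0.27, of Vcan to -0.21, of Cd44 to -0.11, of Sparc to -0.14 and of Fbn1 to -0.28 (adjusted p = 0.302). Those of Eln (-0.41), Has2 (0.26) and Has1 (-0.06) also changed. Groups of 3 libraries remained there, with 0 of the 9 genes past the threshold. Leaving out other single libraries moved estimates up or down, for example that of Fn1 up to -0.29 without MI+Agrin replicate 3. The lowest estimates with 1 library left out were, without MI+PBS replicate 1, -0.75 for Eln, -0.45 for Cd44 and -0.43 for Vcan. Without MI+Agrin replicate 5 they were -0.85 for Tnc and -0.54 for Fn1, and without MI+Agrin replicate 4 they were -0.50 for Fbn1 and -0.38 for Sparc.

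Single hearts tended to be high or low for many of the genes at once. MI+PBS replicate 2 was the highest of the 12 libraries for 7 genes, Vcan and Has1 being the exceptions. MI+PBS replicate 1 was the lowest of the vehicle hearts for 7 genes but the second highest for Tnc. MI+Agrin replicate 1 was the lowest agrin heart for Tnc, Vcan, Sparc and Fbn1 and the highest for Has1 and Eln. Sham replicate 4 was the lowest of all 12 libraries for 8 genes, Cd44 being the exception. Activated fibroblast markers (6 genes, among them Col1a1 and Postn) summed to between 61571 and 101760.0 in sham, 206260.0 and 234610.0 in MI+PBS and 139530.0 and 208820.0 in MI+Agrin libraries, the lowest agrin value being that of replicate 1. All 6 rose in MI+PBS against sham and 5, all but Fap, in MI+Agrin against sham, where all 6 rose with MI+PBS replicate 2 and MI+Agrin replicate 1 left out. Between agrin and vehicle limma called 0 of the 6, with 2 at an unadjusted p under 0.05, edgeR called 0 and DESeq2 called 1 (Acta2). The 7 general fibroblast markers summed to between 107120.0 and 124120.0 in sham, 79055 and 101050.0 in MI+PBS and 90714 and 118320.0 in MI+Agrin libraries. Gsn was the largest part of this sum in every library, with 59200 to 77247 in sham and 31919 to 49754 in MI+PBS. The sum therefore largely follows that gene, and the median log2 change of the 7 in MI+PBS against sham was 0.08, with 4 not passing. In MI+PBS against sham 1 of the 7 rose (Col15a1) and 2 fell, Gsn (-0.80 ± 0.15) and Tcf21 (-0.46 ± 0.15), and the Col15a1 call was lost without MI+PBS replicate 2 and MI+Agrin replicate 1. In MI+Agrin against sham limma called 0 of the 7, with 1 at an unadjusted p under 0.05, whereas edgeR, DESeq2 and limma without those libraries each called 1, Gsn, as lower. The part of fibroblast number in the matrix differences was not tested.

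**Figure D5:**
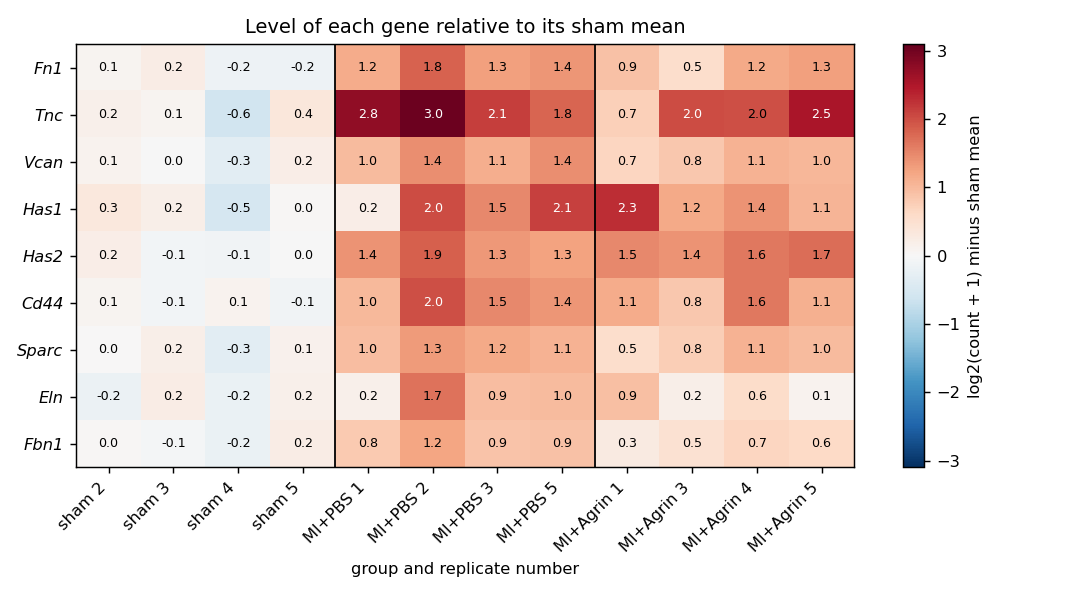
Log2(normalized read count + 1) of each gene minus its sham mean, by library, in groups of 4. Tnc reaches the largest value, 3.0 in MI+PBS replicate 2, while Has1 and Eln stay at 0.2 in MI+PBS replicate 1.

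Relative levels of genes that work together also differed among hearts. Per kilobase, the ratio of Eln to Fbn1 ran from 0.506 to 0.717 in sham, from 0.375 to 0.796 in MI+PBS and from 0.410 to 0.932 in MI+Agrin libraries. The ratio was lowest in MI+PBS replicate 1 and highest in MI+Agrin replicate 1, so the infarcted groups spread beyond sham on both sides. The ratio of Has2 to Has1 ran from 1.04 to 1.70 in sham, from 0.683 to 2.93 in MI+PBS and from 0.722 to 2.02 in MI+Agrin libraries. The ratio of Tnc to Fn1 ran from 0.115 to 0.223 in sham, from 0.212 to 0.474 in MI+PBS and from 0.139 to 0.440 in MI+Agrin libraries. In 6 of the 8 infarcted hearts it was above the highest sham value, the exceptions being MI+PBS replicate 5 and MI+Agrin replicate 1.

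Genes that make, bind or break down the same matrix were counted beside the 9. The lists were drawn up with earlier results of these data known. For every list here, and for the marker lists above, the shares over all genes in limma are the same. In MI+PBS against sham 22.6% rose and 21.8% fell, and in MI+Agrin against sham 15.4% rose and 13.2% fell. Between agrin and vehicle 1.64% passed and 18.8% had an unadjusted p under 0.05. Of 23 tested hyaluronan genes, 11 rose and 1 fell in MI+PBS against sham, with a median of 0.59, where 22.6% of all genes rose and 21.8% fell. Hmmr (2.05 ± 0.22), which encodes an intracellular and surface hyaluronan-binding protein of dividing cells, and Tnfaip6 (1.96 ± 0.20), an enzyme that links proteins to hyaluronan in inflammation, were among them, with Stab1 (0.88 ± 0.09), a scavenger receptor of macrophages, and the receptor gene Layn (0.89 ± 0.10). The third synthase gene, Has3, went the other way from Has1 and Has2 with a log2 change of -0.75 ± 0.20 (adjusted p = 0.0094). With agrin, 11 rose against sham, among them Acan (1.36 ± 0.23), the proteoglycan aggrecan, and 1 (Itih5, -0.49 ± 0.15) fell, where 15.4% of all genes rose and 13.2% fell.

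Between agrin and vehicle 1 of the 23 hyaluronan genes passed in limma and in edgeR, and 3 in DESeq2 (Tmem2, Ptx3 and Tnfaip6). Tmem2, which encodes a surface protein with hyaluronan-degrading activity, averaged 905.4 normalized counts in sham, 1308 in MI+PBS and 869.3 in MI+Agrin. With agrin against vehicle the log2 change was -0.59 ± 0.10 (adjusted p = 0.01), and it had risen by 0.52 ± 0.10 in MI+PBS against sham (adjusted p = 0.00109). The agrin and vehicle libraries did not overlap.

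Of 14 genes for fibronectin receptors and partners, 8 rose and 1 fell in MI+PBS against sham, with a median of 0.41. Itga5, the alpha chain of the classical fibronectin receptor, rose by 1.35 ± 0.13, Itgb3 by 1.17 ± 0.17 and the transglutaminase gene Tgm2 by 0.85 ± 0.10. Itgb6, the beta chain of an epithelial integrin, fell, with a log2 change of -1.19 ± 0.15 (adjusted p = 9.67e-05). Against sham, agrin hearts had 5 genes up, with Itga5 at 0.86 ± 0.13, and 2 (Itgb6 and Sdc2) down. Between agrin and vehicle 0 of 14 passed in limma or edgeR and 2 in DESeq2 (Itga5 and Itgav), with a median of -0.17 beside 0.00 over all genes. In limma 7 of the 14 had an unadjusted p under 0.05, where 18.8% of all genes did.

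Of 23 genes for elastic fibre and microfibril assembly, 15 rose and 2 (Ltbp4 and Ltbp1) fell in MI+PBS against sham, with a median of 0.73. The cross-linking enzyme genes Lox (2.32 ± 0.20) and Loxl3 (2.00 ± 0.22), Efemp2 (1.11 ± 0.11), which encodes fibulin-4, and Emilin1 (1.13 ± 0.13) had the smallest p-values. Agrin hearts against sham had 13 genes up and 1 (Ltbp4) down, with Lox at 2.00 ± 0.20, Loxl3 at 1.51 ± 0.22 and the microfibril gene Mfap5 at 0.96 ± 0.14. Between agrin and vehicle 0 of 23 passed in limma, edgeR or DESeq2, with 7 at an unadjusted p under 0.05 in limma and a median of -0.18.

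Of 12 genes for proteases of versican and elastin, 7 rose and 1 fell in MI+PBS against sham. The aggrecanase genes Adamts4 (2.5 ± 0.22) and Adamts9 (1.254 ± 0.167), the macrophage elastase gene Mmp12 (2.70 ± 0.42) and the cathepsin gene Ctsl (0.75 ± 0.10) were among those that rose. Adamts5, which encodes a versican-cleaving enzyme, averaged 1046 normalized counts in sham, 850.2 in MI+PBS and 1184 in MI+Agrin. Its log2 change in MI+PBS against sham was -0.30 ± 0.10 (adjusted p = 0.0228). It was higher with agrin than with vehicle by 0.47 ± 0.10 (adjusted p = 0.0292), the 1 gene of this list to pass there in limma and in edgeR, while DESeq2 called 3 (Adamts5, Adamts1 and Adamts9). Without MI+PBS replicate 2 and MI+Agrin replicate 1 that call was lost and 0 of 12 passed. Against sham, 6 rose with agrin, among them Adamts4 (1.90 ± 0.22) and the cathepsin gene Ctss (1.19 ± 0.26).

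Of 15 other tenascin, SPARC family and matricellular genes, 8 rose and 2 fell in MI+PBS against sham in limma. The same limma counts held in MI+Agrin against sham, where edgeR called 7 of the 15 and DESeq2 8. Postn and Ctgf were called by neither of these there, and their agrin and sham libraries overlapped. In MI+PBS against sham edgeR called 9, without Sparcl1, and DESeq2 10. Spp1, which encodes osteopontin, rose by 3.66 ± 0.39 with vehicle and by 3.25 ± 0.39 with agrin. Thbs1, which encodes thrombospondin-1, rose by 2.26 ± 0.18 and by 1.12 ± 0.18. Ctgf (1.70 ± 0.28) and Tgfbi (1.01 ± 0.17) were named for MI+PBS against sham and the tenascin gene Tnn (1.72 ± 0.35) for MI+Agrin against sham. Sparcl1 and Smoc2, relatives of Sparc, were the 2 that fell in both comparisons, with Smoc2 at -0.48 ± 0.10 in MI+Agrin against sham. Without MI+PBS replicate 2 and MI+Agrin replicate 1 the Sparcl1 call in MI+PBS against sham was lost, and Tnxb fell in both comparisons. Thbs1 was the 1 gene of this list to pass between agrin and vehicle in limma, edgeR and DESeq2, with a log2 change of -1.14 ± 0.18 (adjusted p = 0.00756). Its mean levels were 1075 normalized counts in sham, 5201 in MI+PBS and 2400 in MI+Agrin.

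The genes with the profile nearest to each of the 9 were sought among 11805 genes with a mean of at least 50, as the smallest root mean square difference of log2 values over the 12 libraries, each profile set to 0 at its sham mean. Sparc had the closest partner of all, the collagen chaperone gene Serpinh1, at 0.067, which was also second for Vcan at 0.118 after Myo7a (0.096). Fbn1 was nearest to Pdia5 (0.082), Msn (0.086) and the biglycan gene Bgn (0.09). Fn1 was nearest to Steap2 (0.142), Cdt1 (0.148) and Lmnb1 (0.152). Tnc, with larger differences, was near to the galectin-3 gene Lgals3 (0.332) and the lysyl oxidase gene Lox (0.348).

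The cell surface and hyaluronan genes had other neighbours. Cd44 was nearest to Sdf2l1 (0.18), the endotoxin co-receptor gene Cd14 (0.194) and Il17ra (0.226), Has2 to Rbm47 (0.179), Hk3 (0.205) and Emb (0.219), and Has1 to Lbp (0.384), the macrophage scavenger receptor gene Cd163 (0.42) and Mmp19 (0.44). Eln was nearest to the tropomyosin gene Tpm2 (0.212), Tro (0.225) and the myosin light chain gene Myl9 (0.227). Among the 9 genes the closest pair was Vcan and Sparc, at 0.138, and the nearest member to Tnc, Has2, was 0.726 away.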

How the data were processed

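The deposited table gives 1 signal value per gene and library, normalized counts per the file headers. The submitters' processing notes name STAR 2.4.2a, cutadapt, DESeq2 1.10.1, HTSeq and the build mm10. The sources used here give neither the role of each tool nor the annotation or strand setting. Dividing by the value of 1 read gave whole reads (at least 99.99% of each library's values within 0.0055 normalized counts of a whole multiple). The count tests use 11 libraries and leave out sham replicate 2, where the value of 1 read, 1.0108 normalized counts, is the closest to 1. Its values were whole multiples too, and MI+Agrin replicates 3 (0.9871) and 1 (1.0134), nearly as close to 1, were kept. Genes with a mean of at least 5 entered 1 limma 3.58.1 model of 3 group means on log2(value + 1) with an intensity trend (R 4.3.3), adjusted by Benjamini-Hochberg at 0.05 and tested on simulated data. No label gives a batch, and each library is 1 of the 4 animals that the design text gives a group, so replicate spread is spread among animals.

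The 9 genes and all lists were chosen with earlier results of these data known. Named genes were the 9, up to 4 passing genes with the smallest p per list and comparison, any passing direction with 5 or fewer, and the 3 nearest profiles of each gene, of which 1 is not reported here. Ptprc, Cd68, Col1a1 and Postn were named as markers. Loci and exon lengths come from GENCODE M21 and promoters from RefSeq, and table symbols such as Tmem2 (now Cemip2) were kept. Alternatives were pseudocounts of 0.5 and 5, no filter or a mean of at least 50, TMM rescaling, limma with no trend, recovered reads in DESeq2 1.42.0 or edgeR 4.0.16, 8 libraries only, a replicate block, quality weights, a threshold of 0.01, and leaving out each library or the pair that stood apart. That pair was also left out for the lists, a choice made after seeing the data.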

Additional observations from a re-analysis of the deposited data

How the results depend on the processing

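In MI+PBS against sham and in MI+Agrin against sham, each of the 9 genes kept its direction and its side of the threshold at 0.05 under all 20 alternatives run for single genes, so that 9 and 8 genes passed in each. At 0.01, 8, 0 and 7 genes passed in MI+PBS against sham, MI+Agrin against MI+PBS and MI+Agrin against sham. In MI+Agrin against MI+PBS the count of 0 became 1 with DESeq2 on recovered reads (Fbn1). The Has1 estimate there turned from 0.02 to -0.062 with edgeR, to -0.06 with DESeq2, to -0.003 with quality weights and to -0.064 with MI+PBS replicate 2 and MI+Agrin replicate 1 both left out; leaving out 1 library at a time, it ranged from -0.40 without MI+PBS replicate 1 to 0.24 without MI+PBS replicate 5. The cause was not tested.

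Over all genes, 245 passed in MI+Agrin against MI+PBS, but 602 with DESeq2, 106 with the 8 libraries of both groups, 83 at 0.01 and 137 with both libraries left out. Leaving out 1 library gave 137 to 327, with 145 without MI+PBS replicate 2 and 137 without MI+Agrin replicate 3. In MI+Agrin against sham 4261 genes passed and 2062 at 0.01. Deviations of same-numbered libraries of different groups had correlations across genes from -0.285 to 0.121, beside -0.223 to 0.302 for differently numbered ones. The numbers thus gave no sign of pairing the hearts, which so few libraries cannot exclude. With the replicate number as a block, 9, 0 and 8 of the genes passed, and 75 genes overall in MI+Agrin against MI+PBS. Depth limited Has1 and Has2 most.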
